A study of Homo sapiens with 6 samples.

Results

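The cytosolic ribosomal protein genes encode the protein subunits of the ribosome that translates mRNAs in the cytoplasm, and 84 of the 15917 genes listed for these cells were such genes by symbol. The rule took every gene named *RPS* or *RPL* with a number and an optional A, X, L or L1, together with *RPSA* and *RPLP0* to *RPLP2*, and left out numbered pseudogenes and Y-linked copies. It used no measured value. From lists of subunit genes, all 31 of the small subunit and all 46 of the large subunit were found, together with 6 of 8 known paralogs. *RPL3L* and *RPL10L*, paralogs known from muscle and testis, had no row. The last member, *RPS2L1* (ENSG00000235508, chromosome 20, 45640486 to 45641370 on GRCh38), is annotated by GENCODE as the processed pseudogene *RPS2P7*, so 83 members were protein-coding genes.

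The cells were MDA-MB-231, an established line from a triple-negative breast cancer with mesenchymal features. Of the 6 total RNA libraries, 2 carried a control hairpin (shCTRL), 2 the hairpin shRBMS3-B3 and 2 the hairpin shRBMS3-C3, the last pair of groups being *RBMS3* knockdowns made with 2 different short hairpin RNAs. *RBMS3* encodes an RNA-binding protein, and the experiment asked which transcripts depend on it. What could be described here is the authors' mean normalized count of each gene, 1 pooled value that carries no replicate error, so no difference between knockdown and control was tested and no level below has an SD or an n. *RBMS3* itself had a mean normalized count of 271.5, below the levels of 83 of the 84 members, and this pooled value cannot show whether the knockdown worked.

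Of the markers listed for the line, those of mesenchymal and basal cells were high. The mesenchymal intermediate filament gene *VIM* stood at 69335, the surface receptor gene *CD44* at 10047 and the growth factor receptor gene *EGFR* at 10930. The epithelial adhesion genes *CDH1* and *EPCAM* stood at 31.61 and 107.2, and the hormone receptor genes *ESR1* and *PGR* had no row. *ERBB2*, the third receptor gene that defines the triple-negative class, was listed at 1557, above 83.45% of listed genes. The keratin genes *KRT8*, *KRT18* and *KRT19*, which are epithelial genes and are not read here as basal markers, were high too, from 6846 to 17802. Of 4 genes that mark immune, endothelial or stromal cells, *PECAM1* was listed, at 69.

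As background, a ribosome is built in the nucleolus from ribosomal RNA and 1 copy of most subunit proteins, with the small subunit reading the mRNA and the large subunit joining amino acids. Because the subunits are used in fixed proportions, cells keep the output of these genes balanced, and unassembled subunits are degraded. Most ribosomal protein mRNAs begin with a C and a tract of pyrimidines, the 5′ terminal oligopyrimidine (TOP) motif, through which their translation follows growth signals such as mTOR. Mutations that remove 1 copy of several of these genes cause Diamond-Blackfan anaemia.

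The ribosomal protein genes were among the most abundant transcripts of the line. Their mean normalized counts ran from 32.86 for *RPS2L1* to 28073 for *RPLP0*, with a median of 7614, which was 20.93 times the median of all listed genes (363.8). They made up 3.342% of the summed mean normalized count. In the highest 10% of listed genes, which began at 2421, were 73 members (86.9%, against 9.996% of all listed genes), and 82 lay above the median of all genes. The exceptions were *RPS2L1* and *RPL36A*. These are counts per gene and grow with transcript length, so they describe how many reads a gene took and not how many molecules it had.

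The 77 named subunit genes spread widely around their median of 8117. The middle of the distribution, between the quartiles at 4881 and 13655, spanned 2.798-fold, whereas the whole range, from *RPL36A* at 356.5 to *RPLP0*, spanned 78.74-fold. Most of them (43) lay between 5000 and 15000, with 14 above, 15 between 2000 and 5000, and 5 below 2000. By rank, 66 were in the first 1000 genes of the table and 7 in the first 100. The median was 7684 over the small subunit genes, from 1452 (*RPS29*) to 25444 (*RPS3*), and 8470 over the large subunit genes. The 6 paralogs had a median of 707.2, from 494.5 (*RPS27L*) to 6622 (*RPL7L1*), and 2 of them were in the highest 10%.

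**Figure D1:**
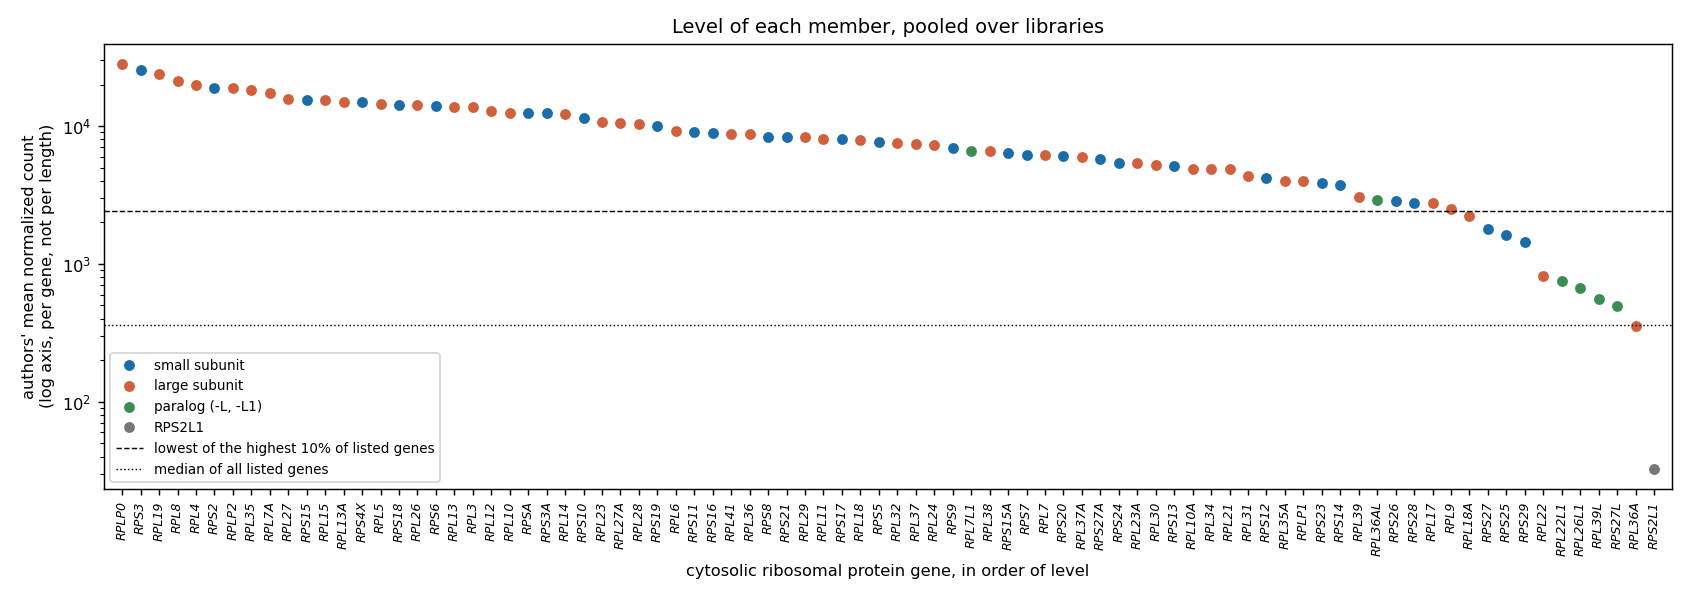
Each point is 1 ribosomal protein gene, in order of its mean normalized count on a log axis, with colours for small subunit, large subunit, paralogs and *RPS2L1*. The dashed line is the lowest value of the highest 10% of listed genes (2421) and the dotted line the median of all listed genes (363.8): 73 of 84 members lie above the dashed line, and 4 of the 6 paralogs lie between the lines.

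Levels of different genes were compared per kilobase (kb) of the representative transcript, the MANE Select or canonical transcript of GENCODE release 44. On this scale the members had a median of 8192 per kb. The 10 highest were *RPLP2*, *RPL35*, *RPL19*, *RPL27*, *RPS15*, *RPL26*, *RPS18*, *RPLP0*, *RPS21* and *RPL12*, from 40742 per kb for *RPLP2* to 20361 for *RPL12*. *RPLP2* (ENSG00000177600, chromosome 11, 809965 to 812880, plus strand) encodes an acidic protein of the P stalk, and its transcript has 462 bases in 5 exons. *RPL35* (ENSG00000136942, chromosome 9, 124857880 to 124861981, minus strand) followed at 40287 per kb with a transcript of 452 bases. *RPL19* stood at 32502, *RPL27* at 30959 and *RPS15* at 30808 per kb. *RPL27* and *RPS15* encode a large and a small subunit protein, so both subunits were represented near the top.

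The 10 lowest per kb were *RPS2L1* (37.13), *RPS27L* (80.93), *RPL22L1* (393.3), *RPL22* (397.1), *RPL36A* (468.5), *RPL39L* (765), *RPL26L1* (922.9), *RPL37* (973.2), *RPS23* (1185) and *RPL7L1* (1472). Paralogs held 5 of these places. *RPL37*, *RPS23* and *RPL22* encode core subunit proteins, and *RPL36A* a large subunit protein that has an autosomal paralog.

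The low end depended on which length was used. The representative transcript of *RPL37* has 7573 bases, of which 7242 are 3′ untranslated region (3′UTR), and divided by its coding length of 294 bases the same count gave 25067 per kb. *RPS23* rose in the same way from 1185 to 8919 per kb of coding sequence. *RPL22* (2115) and *RPL36A* (1111) stayed low on coding length too. A 3′UTR above 1000 bases was annotated for 18 of the 77 named subunit genes. Their median was 2663 per kb of transcript, against 10536 for the others, but 20410 against 15115 per kb of coding sequence. Of the 10 lowest named subunit genes per kb, 9 had such a 3′UTR and 3 were also among the 10 lowest on coding length, whereas 7 of the 10 highest were also among the 10 highest there. Across the 77 genes, which share libraries and are not independent, Spearman's rho was 0.591 between both scales. Counts per gene are not limited to coding sequence, so dividing by coding length can raise genes whose transcripts hold little of it. How far the long 3′UTRs are used in these cells was not tested.

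**Figure D2:**
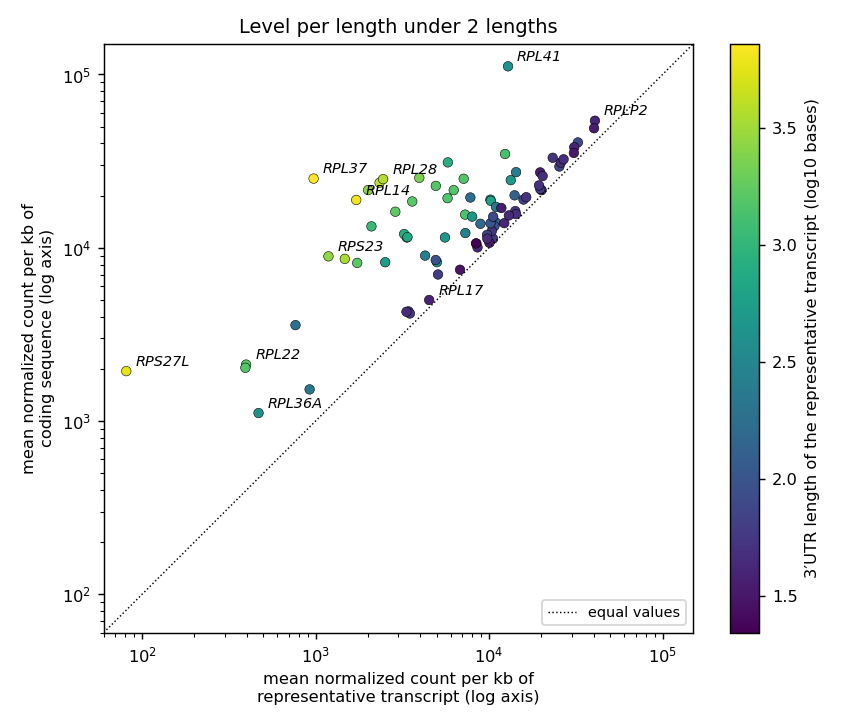
Each point is 1 protein-coding member, with its mean normalized count per kb of representative transcript on the horizontal and per kb of coding sequence on the vertical log axis, coloured by the log10 of its 3′UTR length. Members with a long 3′UTR such as *RPL37* (973.2 against 25067) lie far above the line of equal values, while *RPLP2* (40742 against 54089) lies near it.

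The spread between genes narrowed on coding length, with a quartile range of 2.143-fold against 3.543-fold per kb of transcript. The extreme range stayed near 100-fold (100.3 against 102.6), since *RPL41*, whose coding sequence of 78 bases encodes the smallest ribosomal protein, reached 111447 per kb of coding sequence. That value reflects the short divisor, since its representative transcript has 676 bases. *RPL41* stood at 12859 per kb of that transcript and at 18535 on the shortest transcript of equal coding length. The median of the large subunit was 7536 per kb and that of the small subunit 10186, a ratio of 0.7398, but on coding length the medians were 18678 and 14016, a ratio of 1.333. The order of the subunits therefore turned with the length used, and these data give no direction for it. Counts rose with coding length across the 77 genes (rho = 0.5466).

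The functional parts of the large subunit were unequal on the per kb scale. In the P stalk, which recruits the GTPases of translation, *RPLP0* stood at 25405 and *RPLP2* at 40742 per kb, but *RPLP1*, the partner of *RPLP2* in the stalk dimers, at 3383. On coding length these values were 29426, 54089 and 11513, in the same order. The 5S RNP genes *RPL5* and *RPL11*, whose proteins bind 5S rRNA and can restrain MDM2, stood at 14155 and 7981 per kb of transcript and at 16277 and 15115 per kb of coding sequence. Around the exit tunnel of the nascent chain, *RPL4* had 7274, *RPL39* 7797 and *RPL17* 4512 per kb of transcript, and 15528, 19493 and 4991 per kb of coding sequence. *RPL39* encodes one of the shortest subunit proteins, and its raw mean normalized count of 3041 was far below that of *RPL4* (19939).

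*RPS27A*, whose protein is made as a fusion to ubiquitin that is then cleaved, had 12155 per kb of coding sequence. Of subunit genes with names outside the rule, *FAU*, a ubiquitin-like fusion that yields a small subunit protein, stood at 13704, and *RACK1*, a signalling scaffold on the small subunit, at 24017 per kb of coding sequence. Their values lay within the range of the members. All 16 genes of a list of Diamond-Blackfan anaemia genes were present, from 1452 for *RPS29* to 15635 for *RPL27* in mean normalized count, and 14 of them were in the highest 10%.

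In the pairs of *RPL26*, *RPL39* and *RPS27* the paralog was the lower partner. *RPL26* had a mean normalized count of 14188 and *RPL26L1* 666.3, a ratio of 21.29 on counts and on coding length, which is equal in this pair. *RPL39* exceeded *RPL39L*, described from testis and from some tumours, by 5.453-fold (3041 against 557.7). *RPS27* exceeded *RPS27L*, a p53-responsive paralog, by 3.613-fold (1787 against 494.5), and by 62.72-fold per kb of transcript, where the 3′UTR of 5783 bases annotated for *RPS27L* enters. *RPL22* and *RPL22L1*, a paralog that rises when *RPL22* is lost, were close, at 818.4 and 748, a ratio of 1.094 on counts and 1.043 on coding length.

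In 2 pairs the paralog had the higher count. *RPL36AL* on chromosome 14, a gene of 2 exons, had 2891 and *RPL36A* on the X chromosome 356.5, so the paralog was 8.108-fold higher, on an equal coding length. The level of *RPL36A* is uncertain, since its listed pseudogene copies summed to 467.2 and a read-through gene that holds it stood at 175.2, both outside its own count, and adding them would lower the ratio. *RPL7L1* (6622) and *RPL7* (6168) were near each other, with *RPL7* at 0.9315 times its paralog on counts and 0.9576 times on coding length, but at 3.399 times per kb of transcript. *RPL7L1* encodes a protein involved in ribosome assembly. These ratios carry no error, so pairs near 1 cannot be ordered.

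The annotated starts of the highest members and of the paralog pairs show how their 5′ ends compare. Each sequence below was read 5′ to 3′ from the RefSeq promoter table on GRCh38.p14, with 10 bases before the annotated start and 25 from the start on, and the capitals mark the uninterrupted pyrimidines from the first transcribed base.
RPLP2 (chr11:809957-809991, plus strand): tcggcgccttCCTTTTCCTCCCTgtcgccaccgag
RPL35 (chr9:124861933-124861967, minus strand): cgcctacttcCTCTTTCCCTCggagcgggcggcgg
RPL19 (chr17:39200273-39200307, plus strand): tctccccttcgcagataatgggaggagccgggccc
RPL27 (chr17:42998409-42998443, plus strand): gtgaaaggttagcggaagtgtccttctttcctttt
RPS15 (chr19:1438386-1438420, plus strand): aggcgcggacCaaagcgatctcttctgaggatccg
RPL26 (chr17:8383169-8383203, minus strand): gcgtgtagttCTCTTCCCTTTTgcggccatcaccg
RPL26L1 (chr5:172958719-172958753, plus strand): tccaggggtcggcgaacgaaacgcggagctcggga
RPS27 (chr1:153990752-153990786, plus strand): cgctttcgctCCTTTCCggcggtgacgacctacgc
RPS27L (chr15:63157453-63157487, minus strand): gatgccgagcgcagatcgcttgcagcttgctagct
RPL22 (chr1:6199571-6199605, minus strand): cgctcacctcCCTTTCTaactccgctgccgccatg
RPL22L1 (chr3:170870171-170870205, minus strand): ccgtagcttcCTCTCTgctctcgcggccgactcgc
RPL36A (chrX:101391001-101391035, plus strand): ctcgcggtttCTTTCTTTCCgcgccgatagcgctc
RPL36AL (chr14:49620602-49620636, minus strand): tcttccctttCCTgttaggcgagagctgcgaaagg

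*RPLP2* and *RPL35* open with runs of 13 and 11 pyrimidines. *RPL26* has 12 and *RPS27* 7, while the annotated starts of *RPL26L1* and *RPS27L* hold none. *RPL22* and *RPL22L1* both carry a run, of 7 and 6. In the *RPL36A* pair the gene with the lower count has the longer run at the annotated start, 10 against 3. Pyrimidines also stand just before the start of both genes. With the run allowed to begin within 5 bases of the start, the 2 runs are 10 and 8, so this contrast depends on the annotated start. *RPL19*, *RPL27* and *RPS15*, also among the 5 highest per kb, have no run at the annotated start, although pyrimidines stand just before it in *RPL19* and a pyrimidine tract follows further downstream in *RPL27*, and an annotated start may differ from the one used in these cells.

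A pyrimidine start was counted where any annotated start of a gene was a C followed by at least 4 of C or T. Of the 67 members in the promoter table, 47 had one (70.15%), against 5.142% of all 27305 genes of the table and 7.359% of the 9689 listed genes in it. The named subunit genes had it in 46 of 62 cases and the paralogs in 1 of 5, *RPL22L1*. The nuclear genes of the mitochondrial ribosome had it in 6 of 68 (8.824%). Of the elongation factors, the other known TOP mRNAs and the subunit genes outside the naming rule, 12 of 14 had it. Known TOP mRNAs are named for such a start, so this share was largely set by the choice of the lists. Among the members with the start, the run had a median of 8 bases and reached 19 in *RPL39*. With at least 7 pyrimidines after the C, 26 members remained (38.81%, against 1.853% of all genes). With the run allowed to begin within 5 bases of the start, 55 members had it (82.09%), but so did 25.22% of all genes. The paralog *RPL36AL* was then among these members, with a run of 8. The start was present in 59 of all 84 members (70.24%, against 4.568%) when the first base of the representative GENCODE transcript was read instead.

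At single positions, the first transcribed base was C or T in 69.88% of 83 annotated starts of members and in 21.94% of all 35116 starts. The base just before it was C or T in 90.36% and 75.72%. The difference was still visible at the sixth transcribed base (85.54% against 54.96%). The 16 named subunit genes without the run had a median mean normalized count of 8400 and those with it 8293, and the medians per kb of coding sequence were 12275 and 18760. This split depends on the annotated start. Some of the 16, such as *RPL4* and *RPL10A*, had a run within 5 bases of it. *RPL6* and *RPS29* had one at the first base of the GENCODE transcript, while *RPL27* and *RPL9* had none by either reading. Between 250 bases before and 50 after the start, read on both strands, CCGGAAG, an ETS factor motif, was found in 24 members (35.82%, against 12.16% of all genes), AAGATGGC, a YY1 motif, in 7 (10.45%, against 3.523%) and TATAAA in 6 (8.955%, against 13.99%). These matches describe letters and not sites. The GC content of the windows was similar, with medians of 59.33% and 58.67%.

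**Figure D3:**
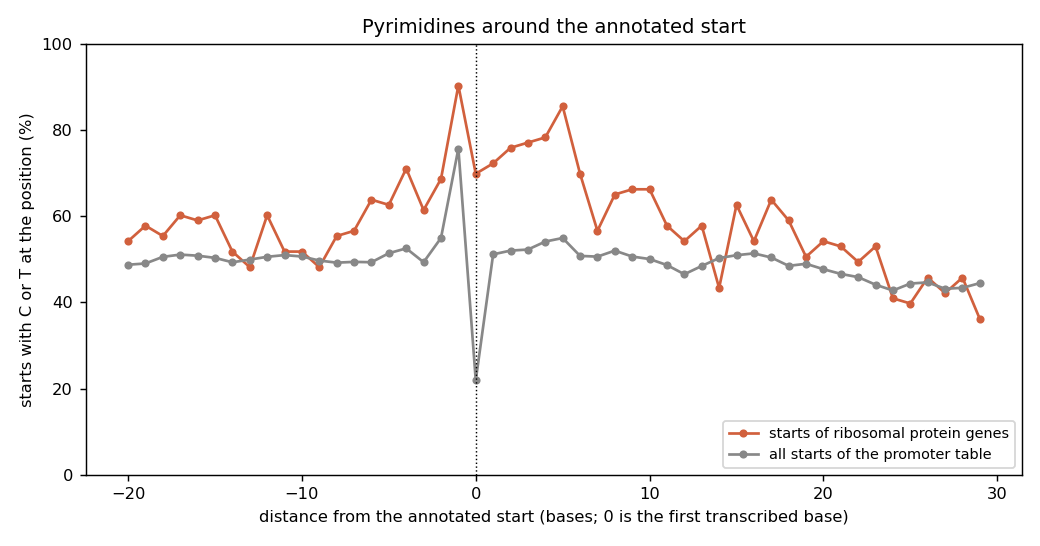
The share of annotated starts with C or T at each distance from the first transcribed base (0), for the 83 starts of ribosomal protein genes and all 35116 starts of the promoter table. At 0 the members stand at 69.88% and all starts at 21.94%. Away from the start the curves cross more than once, with members above at most positions and below at others. Members are below 9 bases before the start (48.19% against 49.73%) and at transcribed base 15 (43.37% against 50.31%).

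Beside other parts of the translation machinery, the members stood well above the mitochondrial ribosome. The 77 genes of the mitochondrial ribosome, which translates the few mRNAs of the organelle, had a median of 763, from 138.8 (*MRPS21*) to 2050 (*MRPL51*), and none was in the highest 10%. The median of the named cytosolic subunit genes was 10.64 times theirs on counts, 15.4 times per kb of transcript and 12.74 times per kb of coding sequence. The ranges overlapped in the lowest cytosolic genes. The 7 elongation factor genes ran from 46379 for *EEF1A1*, which delivers aminoacyl-tRNA, to 371.9 for *EEF1E1*, a synthetase complex protein, with a median of 15167 on counts, 10293 per kb of transcript and 12266 per kb of coding sequence, against 8192 and 15528 per kb for the members. Of 11 other known TOP mRNAs, 10 were in the highest 10%, from 17833 for *PABPC1*, the poly(A)-binding protein, to 2275 for *EIF3E*, an initiation factor subunit. Their median of 10107 was above that of the members on counts (7614), but below it per kb of transcript (2371 against 8192) and per kb of coding sequence (7336 against 15528). The 25 genes of ribosome biogenesis had a median of 1918, with *NCL* (nucleolin) highest at 18549 and the kinase gene *RIOK2* lowest at 352.

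**Figure D4:**
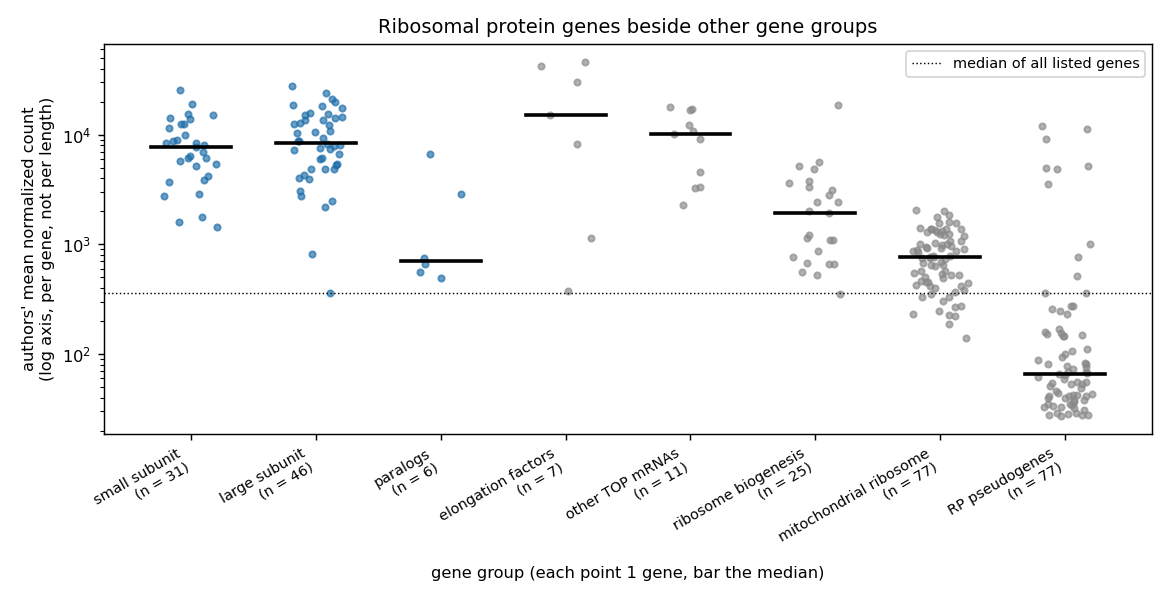
Each point is the mean normalized count of 1 gene on a log axis and each bar the median of its group, with the ribosomal protein genes in blue and the other groups in grey. On these counts, which are not per length, the small and large subunit medians (7684 and 8470) lie below that of the other TOP mRNAs (10107), which is the lower one per kb, and above those of ribosome biogenesis (1918) and the mitochondrial ribosome (763).

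Ribosomal protein genes have many processed pseudogenes, near copies without introns, and reads can be hard to divide between a gene and its copies. Of the pseudogenes named after a member, 77 were listed, with a median mean normalized count of 65.18 and a sum equal to 8.026% of that of the members. Only 7 exceeded 3000, and these held 86.15% of the sum: *RPL13AP5* (11899), *RPSAP58* (11231), *RPL23AP2* (9174), *RPS7P1* (5199), *RPL9P9* (5009), *RPL6P27* (4835) and *RPS4XP22* (3526). For 45 members at least 1 copy was listed, and for 8 the copies exceeded 10% of the member's own count. The copies of *RPL23A* summed to 182.9% of its own count, those of *RPL9* to 201.7% and those of *RPL36A* to 131%. They reached 90.23% for *RPSA*, 84.08% for *RPS7*, 81.43% for *RPL13A*, 52.24% for *RPL6* and 23.69% for *RPS4X*. The levels of these 8 members are uncertain for that reason, and adding the copies raised the share of all members from 3.342% to 3.61%. Read-through genes were a further source, with *RPS10-NUDT3* at 1715, *RPL36A-HNRNPH2* at 175.2 and *RPL17-C18orf32* at 74.69.

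Many ribosomal protein genes carry small nucleolar RNAs (snoRNAs), guides for rRNA modification, in their introns. GENCODE places 60 snoRNA genes within 28 members, up to 5 in 1 gene, and 30 of them were listed. Their mean normalized counts ran from 33.26 (*SNORD58B*, in *RPL17*) to 6879 (*SNORD15B*, in *RPS3*), with a median of 197.1. *SNORA64* in *RPS2* stood at 1645, *SNORD15A* in *RPS3* at 1275 and *SNORA70* in *RPL10* at 1272. The libraries were made from total RNA after depletion of ribosomal cDNA, so reads of a snoRNA and of the intron that holds it cannot be told apart here.

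The 3′UTRs were searched for the AUA motif that the study links to *RBMS3*, written here as A, G or T, then A or T, then ATA, then A or T, then A, on the sense strand. Members have short 3′UTRs, with a median of 174 bases among the 83 protein-coding members, against 1378 for all listed genes with one. A match was present in 67 of 83 (80.72%), against 84.83% of 12351 listed genes. At least 3 matches were present in 23 members (27.71%, against 53.06%). The first match of 4 genes is shown with up to 8 bases on each side, from the sense strand of GENCODE release 44, with the motif in capitals, because *RPL27A* differs from the rest in what the motif overlaps.
RPL22 (bases 36 to 42 of the 1652 of its 3′UTR): gagttcttGAATAAAacttggga
RPL15 (bases 29 to 35 of 1488): ttcatactTAATAAAcaatttag
RPS12 (bases 3 to 9 of 22): agAAATAAAtctttggc
RPL27A (bases 156 to 162 of 4066): cttccctcAAATATAtggtaaac

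In *RPL22*, *RPL15* and *RPS12* the match contains AATAAA, the letters of the canonical polyadenylation signal, which stands close to the 3′ end of most mRNAs. Of the 67 members with a match, 39 (58.21%) had only matches of this kind, against 26.44% of all listed genes with a match. With them left out, 28 members (33.73%) kept a match, against 62.4% of all. In the paper's map of RBMS3-bound sites, made by cross-linking and immunoprecipitation, AATAAA was the most significant motif. A match that contains AATAAA can therefore be an RBMS3 site as well, and leaving it out does not set such sites apart. The most matches, 22, were in *RPS27L*, and the longest 3′UTR without one was that of *RPL10* (1478 bases). Members with a match had a median 3′UTR of 230 bases and those without of 56.

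In *RPL22* and *RPL15* the AATAAA lies near the start of a long annotated 3′UTR and not near its end. Among the 18 named subunit genes with a 3′UTR above 1000 bases, 15 (83.33%) had AATAAA within the first 100 bases after the stop codon, against 5.681% of all 7340 listed genes with such a 3′UTR. They included *RPL37*, *RPL22* and *RPS23*, all among the 10 lowest members per kb of transcript. Per kb of coding sequence *RPL37* rose to 25067 and *RPS23* to 8919, whereas *RPL22* stayed low at 2115. Whether the mRNAs of these 15 genes end at the early AATAAA in MDA-MB-231 cells was not tested.

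Sorted by 3′UTR length, members below 50 bases had a match in 71.43% (15 of 21), against 41.3% of all listed genes of that length, and those from 50 to under 100 bases in 68.75%, against 46.44%. From 100 to under 500 bases the shares were 88.89% and 66.5%, and from 500 to under 2000 bases 84.21% and 85.8%. All 9 members of at least 2000 bases had a match, against 97.38%. Without the matches that contain AATAAA, the shares below 50 bases were 19.05% (4 of 21) and 9.42%, from 50 to under 100 bases 12.5% (2 of 16) and 8.475%, from 100 to under 500 bases 27.78% (5 of 18) and 25.03%, and from 500 to under 2000 bases 47.37% and 59.69%. Each of these last shares rests on at most 9 members with a match, and no difference from all genes is read from them. Whether RBMS3 binds these matches was not tested.

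**Figure D5:**
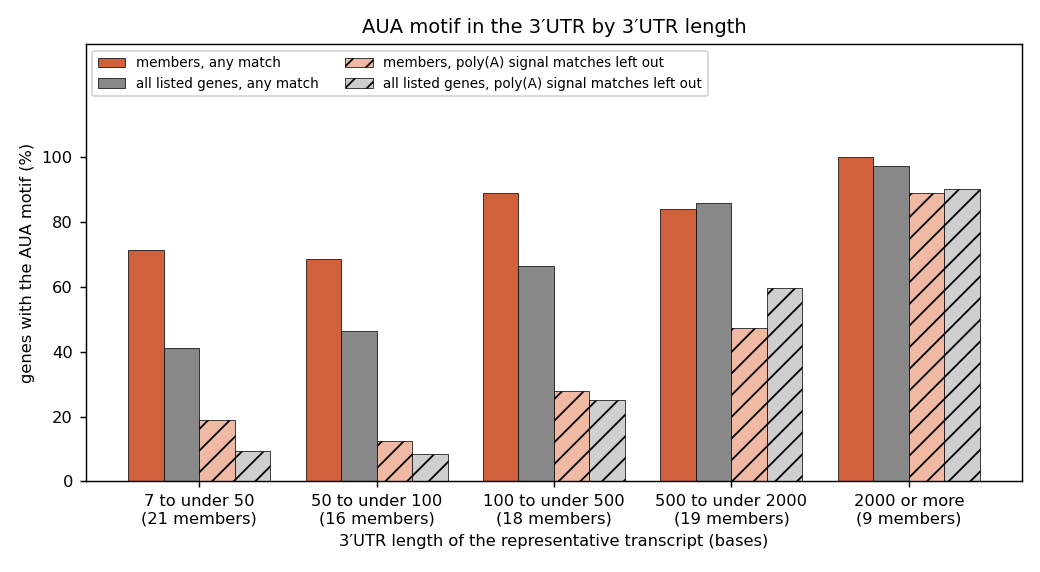
Bars give the share of genes with the AUA motif in the representative 3′UTR by its length in bases, for members and all listed genes, with hatched bars where matches that contain the polyadenylation signal letters are left out. In the shortest class members stand at 71.43% against 41.3%, and at 19.05% against 9.42% in the hatched bars.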

How the data were processed

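RNA was extracted from MDA-MB-231 cells and libraries were prepared from total RNA with a stranded low-input kit that depletes ribosomal cDNA. The submitters' processing notes name Salmon, DESeq2 and hg38, without versions or roles. The authors deposited 1 table for the series, with a pooled signal per gene, the mean normalized count, at least 26.7 in every row. Which libraries were averaged and their depth are not given in the sources used here. A further 5 columns hold the authors' own comparison (fold change, its standard error, test statistic, p-value and adjusted p-value) and were not used. The table has 0 columns of values per library, so the planned count test of knockdown against control was not run, and levels have no error.

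Identifiers were joined to GENCODE release 44 (15829 matched, 88 did not). Counts were divided by representative transcript or coding length. Promoter sequences were those of RefSeq on GRCh38.p14, matched by symbol. Named genes were the 10 highest and 10 lowest members per kb, all paralogs, the P stalk, 5S RNP, exit tunnel and ubiquitin fusion lists, and the highest and lowest of the other lists. Genes with large pseudogene sums, snoRNAs, the genes shown for the AUA motif and the search for AATAAA after the stop codon were chosen after their values were seen. The members and lists were chosen with earlier results of these data known. Motif and run counting were checked on simulated sequences. Python 3.11.15, pandas 2.3.3, numpy 2.4.6, SciPy 1.17.1 and matplotlib 3.10.9 were used.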

Additional observations from a re-analysis of the deposited data

How the results depend on the processing

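Of 26 alternatives over 7 results, 8 left a count within 1.5 times of its value and 18 moved the result, where any change in a share, median or ratio was taken as a move because these have no error; 8 of the 26 were chosen after seeing the data. With only named subunit genes the share of the summed mean normalized count was 3.287%, the median 8117 and the median per kb 8911; with only protein-coding genes the share was 4.437% and the median 7684; with pseudogene counts added 3.61% and 7989. The median per kb was 4230 on the longest transcript, 10977 with the length reduced by 2 reads of 75 bases, 10182 on the shortest transcript of equal coding length and 15528 on coding length. The ratio of large to small subunit medians was 1.053, 0.7141, 1.017 and 1.333 in that order, so its direction rests on the length used. Pyrimidine starts fell to 26 with at least 7 pyrimidines, and members with the AUA motif to 23 with at least 3 matches and 28 without matches that contain AATAAA. The highest 10% held 71 to 73 members throughout.

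No paired analysis was possible because the table holds no value per library. For the same reason another normalization, a filter on low counts, leaving out each replicate and each hairpin alone were not run. Genes below the table's lowest value are not described, and depth is unknown, so no precision can be given.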
